A study of Mus musculus with 8 samples.

Results

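Slc14a1 encodes the facilitative urea transporter UT-B, and Aqp1, Aqp3, Aqp5 and Aqp11 encode aquaporins, the channel proteins that carry water and, for some of them, glycerol across membranes. These 5 genes were taken from a deposited table of 16341 genes by matching their symbols to Ensembl identifiers, and they had been picked with their difference between the sorted populations already known, so that this difference is described below without a test. All 5 were detected in every library. The libraries were made from 4T1, a mouse mammary carcinoma line that grows and metastasizes in BALB/c mice, after magnetic sorting on SCA1, the surface protein encoded by Ly6a. The 4T1-Sca1+ group and the 4T1-Sca1- group held 4 libraries each, both sorted from the parental line and both given as CD45- by the labels, with no treatment, allele or time point separating them. The protocol text of the labels speaks of stained 4T1 tumor, whereas the source name gives the parental line. Whether the 4 libraries of a group came from separate cultures or sorts is not stated. The SD below is thus the spread between these libraries, which may be technical. The adjusted p-values set group differences against variation estimated from the same libraries, with the same limit.

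UT-B lets urea pass down its gradient and is best known from erythrocytes and from the descending vasa recta of the kidney. Aquaporins sit in membranes as tetramers with a pore in each subunit. The classical members pass water alone, the aquaglyceroporins pass glycerol and other small solutes as well, and the remaining, unorthodox members are found mainly on internal membranes. In the mammary gland and other exocrine glands, they are known for the movement of water into secretions.

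Library totals ran from 15041995 to 16968215 counts in the 4T1-Sca1+ group and from 13561804 to 16142836 in the 4T1-Sca1- group. Ly6a, the gene of the sort marker, had 167 ± 20.2 normalized counts in 4T1-Sca1+ libraries and 1.79 ± 1.73 in 4T1-Sca1- libraries (SD, n = 4), so the labels matched the sort. Normalized counts are counts divided by a size factor for each library, and a gene is called here where the adjusted p of edgeR's quasi-likelihood test was under 0.05. Of 11717 genes with enough counts to be tested, 31.3% were called higher and 30.2% were called lower in 4T1-Sca1+ cells, and the median log2 fold change was 0.01. Epcam (3128 against 3222), Krt8 (13673 against 11093) and Krt18 (16514 against 12802), which mark epithelium, were abundant in both groups, with normalized counts in 4T1-Sca1+ given before 4T1-Sca1-, while Krt5 stayed at or under 3 counts in each library. Of the 6 tested of 7 epithelial markers, 2 were called higher (Krt8 and Krt18) and 2 lower, Cdh1 at 3264 against 5301 normalized counts (log2 fold change -0.69) and Krt14 at 550 against 649 (-0.23).

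All 5 genes had higher counts in 4T1-Sca1+ than in 4T1-Sca1- cells, over a range from 3.61 for Slc14a1 to 0.66 for Aqp11 on the log2 scale. For all 5, the lowest 4T1-Sca1+ library lay above the highest 4T1-Sca1- library, an arrangement found for 26.8% of all tested genes, and all 5 were among the genes called higher (31.3% of tested genes); since the same contrast had picked the genes, nothing is read from either count. In bulk samples such as these, fewer cells expressing a gene and less RNA per cell cannot be told apart.

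**Figure D1:**
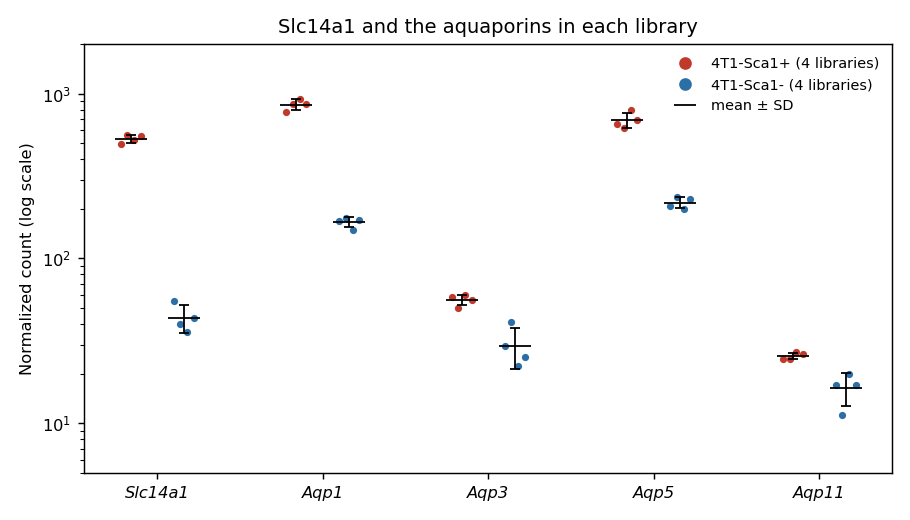
Normalized counts (log scale) of the 5 genes in the 8 libraries, 4T1-Sca1+ in red and 4T1-Sca1- in blue, with the mean and SD of each group in black. The groups are far apart for Slc14a1, Aqp1 and Aqp5, and close for Aqp3 and Aqp11, although no gene's groups overlap.

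The urea transporter showed the widest separation. Slc14a1 (ENSMUSG00000059336; GRCm38 chromosome 18, 78100091 to 78142119, minus strand, 3 annotated transcripts) had 495, 563, 524 and 551 normalized counts in 4T1-Sca1+ replicates 1 to 4 and 55.4, 40.0, 35.6 and 43.4 in 4T1-Sca1- replicates 1 to 4. The lowest 4T1-Sca1+ library was thus several times above the highest 4T1-Sca1- library. The means were 533 ± 30.2 and 43.6 ± 8.47 (SD, n = 4), with a log2 fold change of 3.61 ± 0.10 (standard error), and the 4T1-Sca1- mean was 8.18% of the 4T1-Sca1+ mean. The SD of the 4T1-Sca1+ libraries was 5.67% of their mean, where counting alone gives 4.20%.

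Aqp1, a water channel abundant in erythrocytes, capillary endothelium and the proximal tubule of the kidney, was the most counted aquaporin in 4T1-Sca1+ cells. Aqp1 (ENSMUSG00000004655; chromosome 6, 55336432 to 55348555, plus strand) had 769, 871, 933 and 861 normalized counts in the 4T1-Sca1+ libraries and 169, 177, 149 and 170 in the 4T1-Sca1- libraries. Both groups were tight, and each 4T1-Sca1+ library exceeded each 4T1-Sca1- library by a wide margin. The means were 858 ± 67.6 and 166 ± 11.9 (SD, n = 4) and the log2 fold change was 2.38 ± 0.08, which left 4T1-Sca1- cells at 19.4% of the 4T1-Sca1+ mean.

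Aqp5 is the apical water channel of salivary, lacrimal and sweat glands and of alveolar type I cells. Aqp5 (ENSMUSG00000044217; chromosome 15, 99590782 to 99594829, plus strand) had 658, 621, 795 and 689 normalized counts in the 4T1-Sca1+ libraries and 209, 235, 200 and 228 in the 4T1-Sca1- libraries. Replicate 3 was the highest of its group among 4T1-Sca1+ libraries and the lowest among 4T1-Sca1- libraries. The means were 691 ± 74.7 and 218 ± 16.2 (SD, n = 4), the log2 fold change was 1.67 ± 0.08, and 4T1-Sca1- cells held 31.6% of the 4T1-Sca1+ mean. The longest transcript of Aqp5 is 64.0% G and C, the richest of the 5 genes, and a fit with offsets corrected for GC content, chosen after seeing the data, gave a log2 fold change of 1.32.

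Aqp3, the aquaglyceroporin of basolateral membranes in the collecting duct and in keratinocytes, carries glycerol as well as water. It was much less abundant and its difference was smaller. Aqp3 (ENSMUSG00000028435; chromosome 4, 41092722 to 41098183, minus strand) had 58.5, 50.3, 59.8 and 56.0 normalized counts in the 4T1-Sca1+ libraries and 29.6, 41.1, 22.3 and 25.1 in the 4T1-Sca1- libraries. The 4T1-Sca1- libraries varied more than the 4T1-Sca1+ ones, with replicate 2 nearest to the other group. The means were 56.2 ± 4.22 and 29.5 ± 8.28 (SD, n = 4), the log2 fold change was 0.93 ± 0.18, and the 4T1-Sca1- mean was 52.5% of the 4T1-Sca1+ mean.

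Aqp11, an unorthodox aquaporin of the endoplasmic reticulum whose loss gives polycystic kidneys in mice, was the scarcest of the 5. Aqp11 (ENSMUSG00000042797; chromosome 7, 97724006 to 97738289, minus strand) had 24.7, 24.7, 26.9 and 26.3 normalized counts in the 4T1-Sca1+ libraries and 17.2, 11.3, 20.0 and 17.1 in the 4T1-Sca1- libraries. The gap between the groups was narrow, and 4T1-Sca1- replicate 2 was the lowest library. The means were 25.6 ± 1.15 and 16.4 ± 3.67 (SD, n = 4) with a log2 fold change of 0.66 ± 0.22, and 4T1-Sca1- cells stood at 64.0% of the 4T1-Sca1+ mean. With 109 raw counts in all 4T1-Sca1+ libraries and 62 in all 4T1-Sca1- libraries, counting alone gives an SD of 19.2% and 25.4% of the mean, where the observed SDs were 4.47% and 22.4%. The gene was no longer called when DESeq2 was used (log2 fold change 0.65) or when 4T1-Sca1- replicate 2 was left out (0.51), nor at an adjusted p under 0.01. No annotated gene on either strand overlaps any of the 5 genes.

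To compare levels between the genes, counts were converted to RPKM, reads per kilobase of the longest annotated transcript, scaled to the library's size. In 4T1-Sca1+ cells, the RPKM levels fell in the order Aqp5 (25.4 ± 2.68), Aqp1 (21.6 ± 1.65), Slc14a1 (9.62 ± 0.546), Aqp3 (2.10 ± 0.156) and Aqp11 (0.292 ± 0.0125; SD, n = 4). Aqp5 and Aqp1 overlapped between libraries, and their order turned round when the union of exons was used as length (17.6 for Aqp5), while the other neighbours in the order did not overlap. In 4T1-Sca1- cells, the RPKM levels were 7.96 ± 0.577 for Aqp5, 4.15 ± 0.288 for Aqp1, 1.10 ± 0.305 for Aqp3, 0.780 ± 0.151 for Slc14a1 and 0.186 ± 0.0419 for Aqp11. There, Aqp3 and Slc14a1 overlapped, so Slc14a1 stood clearly above Aqp3 in 4T1-Sca1+ cells only. The longest annotated transcript of Aqp11 is not a coding one, and over its longest coding transcript Aqp11 reached an RPKM of 0.453 (4T1-Sca1+) and 0.288 (4T1-Sca1-), still the lowest of the 5.

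The aquaporin transcripts also differed in makeup. Summed over the 4 aquaporins that passed the filter on low counts, the RPKM level was 49.4 ± 4.02 (4T1-Sca1+) and 13.4 ± 1.04 (4T1-Sca1-) (SD, n = 4). Aqp1 made up 43.8% ± 2.10 of this sum in the 4T1-Sca1+ group and 31.0% ± 0.825 in the 4T1-Sca1- group, and Aqp5 made up 51.4% ± 1.92 and 59.5% ± 1.36. Aqp3 and Aqp11 together stayed a small part, with 4T1-Sca1+ shares of 4.27% and 0.593% and 4T1-Sca1- shares of 8.11% and 1.41%. The RPKM of Aqp5 was 1.04 to 1.25 times that of Aqp1 in the 4T1-Sca1+ libraries and 1.81 to 1.96 times in the 4T1-Sca1- libraries, so that the ranges of this ratio did not overlap. With the union of exons as length, the ratio was 0.721 to 0.865 and 1.25 to 1.36, again without overlap, and Aqp1 (52.2%) rather than Aqp5 (42.4%) was the larger share in 4T1-Sca1+ cells. These shares come from the contrast that picked the genes and were not tested.

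**Figure D2:**
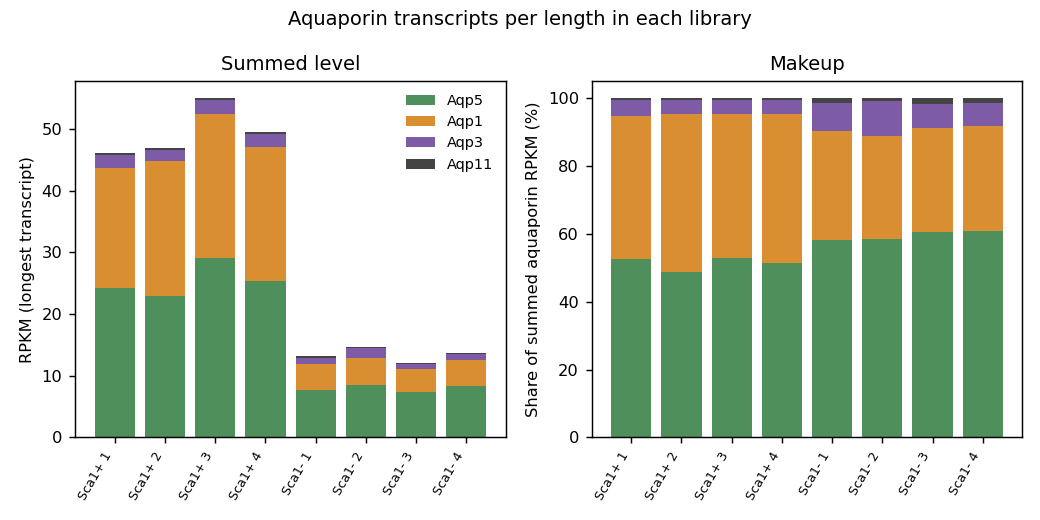
Left, RPKM (longest transcript) of the 4 aquaporins stacked for each of the 8 libraries; right, the same as shares of the sum in percent. The 4T1-Sca1+ bars sum to 49.4 on average and the 4T1-Sca1- bars to 13.4, with a larger Aqp1 share in 4T1-Sca1+ libraries.

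The region upstream of each start site is shown because 4 of the genes have a promoter entry in RefSeq (GRCm38.p6), as 250 bases before the start on the gene's own strand. Distances below are counted from the RefSeq start, which for Aqp1 lies upstream of the GENCODE start at 55336432. The stretches that lie outside GENCODE transcripts are printed 5′ to 3′ for Aqp1 (chr6:55336049-55336298, plus strand), Aqp3 (chr4:41098184-41098433, minus strand) and Aqp11 (chr7:97738290-97738497, minus strand), in lower case with matches to the motifs searched in capitals.
Aqp1: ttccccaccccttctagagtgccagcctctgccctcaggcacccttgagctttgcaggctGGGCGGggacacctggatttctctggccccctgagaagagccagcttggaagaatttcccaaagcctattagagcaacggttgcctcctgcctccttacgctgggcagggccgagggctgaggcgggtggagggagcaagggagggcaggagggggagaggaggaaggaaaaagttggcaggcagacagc
Aqp3: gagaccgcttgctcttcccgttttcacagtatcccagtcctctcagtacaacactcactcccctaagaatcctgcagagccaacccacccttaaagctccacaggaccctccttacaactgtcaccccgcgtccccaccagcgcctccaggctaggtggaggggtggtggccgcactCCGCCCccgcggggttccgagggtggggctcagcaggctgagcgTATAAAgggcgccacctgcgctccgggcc
Aqp11: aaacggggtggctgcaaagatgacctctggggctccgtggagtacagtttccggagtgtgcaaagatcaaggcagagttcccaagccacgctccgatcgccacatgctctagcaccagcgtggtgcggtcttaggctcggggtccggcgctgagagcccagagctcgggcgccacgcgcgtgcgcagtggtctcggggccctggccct
The Aqp5 window (chr15:99590778-99591027) lay inside an annotated Aqp5 transcript for all but 4 bases and is described without its letters. It was 78.4% G and C with 38 CpG dinucleotides, at the 98.1 percentile of all RefSeq promoter windows by GC content and also by CpG count. The other windows were 62.0% (Aqp1), 64.0% (Aqp3) and 67.2% (Aqp11) G and C, with 5, 14 and 23 CpG dinucleotides. On both strands, 6 motifs were searched, none of whose matches overlapped one another. The GC box GGGCGG, found in 32.7% of 32851 windows, occurred 190 bases before the start of Aqp1, 73 bases before that of Aqp3 (on the opposite strand, read as CCGCCC above), and 77 and 34 bases before that of Aqp5. The TATA box TATAAA, found in 12.4% of windows, occurred 29 bases before the start of Aqp3. The antioxidant response element TGACNNNGC (10.2% of windows), the STAT motif TTCNNNGAA (7.02%), the NFAT core TGGAAA (18.6%) and the AP-1 motif TGANTCA (6.75%) had no match in these 4 windows, which says only that these letters are not there.

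The remaining genes of the 2 families had few or no counts. Slc14a2, which encodes the UT-A urea transporters of the kidney medulla and lies 4.03 kb from Slc14a1, totalled 4 counts in the 4T1-Sca1+ group and 1 in the 4T1-Sca1- group. Aqp6, an anion-permeable aquaporin of the intercalated cells of the kidney and a neighbour of Aqp5 at 6.57 kb, had 2 counts in each group. Neither passed 3 counts in any library, which sets a floor at which no fold is given. Mip, Aqp2, Aqp4, Aqp7 and Aqp12 had no row in the count table used here.

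Aqp9, a hepatocyte channel for glycerol, urea and other neutral solutes, had 7, 5, 4 and 11 raw counts in the 4T1-Sca1+ libraries and 1, 0, 0 and 0 in the 4T1-Sca1- libraries. The 4T1-Sca1+ libraries were thus all above the 4T1-Sca1- libraries, at 27 against 1 counts, a depth-corrected ratio of 24.1 with an exact 95% interval of 3.97 to 986 that covers counting error only. Aqp8, which passes water, ammonia and hydrogen peroxide, had 2, 2, 1 and 9 raw counts in the 4T1-Sca1+ libraries and 6, 8, 7 and 8 in the 4T1-Sca1- libraries. The groups overlapped through 4T1-Sca1+ replicate 4, and the ratio of 14 to 29 counts was 0.431 after depth correction (exact 95% interval of 0.210 to 0.842, counting error only). Both genes were below the filter of the fit across all genes. With no filter, the log2 fold change was -1.19 ± 0.52 for Aqp8 (edgeR adjusted p of 0.0533) and 4.06 ± 0.88 for Aqp9 (edgeR adjusted p of 8.4e-05).

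Genes that make, use or answer to the solutes these proteins carry were followed in 3 further lists. Of the genes of the urea cycle and of arginine and ornithine metabolism, 14 were listed, 8 were tested, 2 rose and 3 fell in 4T1-Sca1+ cells, with a median log2 fold change of -0.09 against 0.01 over all tested genes. Of all tested genes, 31.3% were called higher and 30.2% lower (61.5% in all), and the called shares of this and the following sets of genes are to be read against these. Likewise, 4T1-Sca1+ libraries all above 4T1-Sca1- libraries, as for Aqp9 above, are to be read against 26.8% of tested genes. Genes below the filter, Aqp9 among them, are outside that share. Arg2, the mitochondrial arginase that releases urea from arginine, rose from 74.2 ± 7.03 to 158 ± 8.30 normalized counts (SD, n = 4; log2 fold change 1.11 ± 0.10, edgeR adjusted p of 7.54e-08), and its groups did not overlap. The changes of the other called genes were small, with Slc25a13, the mitochondrial aspartate and glutamate carrier, higher by 0.21 ± 0.05 on the log2 scale (edgeR adjusted p of 0.00188) and Oat, ornithine aminotransferase, lower at -0.18 ± 0.05 (edgeR adjusted p of 0.00424). Odc1, ornithine decarboxylase (-0.17), and Slc7a1, a cationic amino acid transporter (-0.11), were the remaining 2 called lower, named here after their values were seen. Slc7a1 was not called in 8 of 18 alternatives, the replicate block among them and 4 of them leaving out a library (4T1-Sca1+ replicate 1 or 2, 4T1-Sca1- replicate 2 or 4). Arg1, the cytosolic arginase of the liver, had too few counts to be tested, and Cps1, Otc and Nags of the urea cycle had no row.

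Of 12 genes of glycerol and glyceride metabolism, 9 were tested, 4 rose and 2 fell (31.3% and 30.2% of all tested genes), with a median log2 fold change of 0.06. Lpin1, a phosphatidate phosphatase of triglyceride synthesis, rose from 89.7 ± 15.9 to 226 ± 8.08 normalized counts (SD, n = 4; log2 fold change 1.35 ± 0.11, edgeR adjusted p of 7.78e-09). Dgat1, which adds the last acyl chain to triglyceride, was higher by 0.62 ± 0.07 on the log2 scale (edgeR adjusted p of 1.25e-06), and Lipe, hormone-sensitive lipase, by 0.59 ± 0.07 (edgeR adjusted p of 2.74e-06). Thus genes of synthesis and of breakdown of triglyceride were both among those that rose. The remaining called genes, named after their values were seen, were Gpd1l at 0.41, Gpd2 at -0.29 and Gpam at -0.20, which act on glycerol phosphate. Dgat2 (-0.17), Pnpla2 (-0.03) and Gk5 (0.06), named likewise, were tested and not called. The number that fell was 1 with library totals alone and 4 with GC-corrected offsets. Gpd1 and Mgll, also named after their values were seen, were too low for the fit. Gpd1 had 49 raw counts in 4T1-Sca1+ against 12 in 4T1-Sca1- libraries and Mgll 34 against 8, both without overlap between the groups.

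Of 18 genes of the osmotic response and of cell volume control, 17 were tested, 6 rose and 9 fell (31.3% and 30.2% of all tested genes), with a median log2 fold change of -0.15. Slc5a3, the sodium and myo-inositol cotransporter that loads cells with an osmolyte, rose from 690 ± 40.0 to 1355 ± 59.4 normalized counts (SD, n = 4; log2 fold change 0.98 ± 0.05, edgeR adjusted p of 8.11e-11). Nfat5, the transcription factor of the hypertonic response, rose as well, by 0.59 ± 0.05 on the log2 scale (edgeR adjusted p of 1.33e-08). Sgk1 (-0.56) and Slc12a2 (-0.45), named after their values were seen, were among the 9 called lower, beside the 6 called higher. Lrrc8c, a subunit of the volume-regulated anion channel, fell by 0.85 on the log2 scale from 2533 ± 123 to 1391 ± 112 normalized counts (SD, n = 4; edgeR adjusted p of 9.24e-10). The list therefore held changes in both directions, and its other subunit genes did so too, with Lrrc8a at 0.42, Lrrc8d at -0.38 and Lrrc8b at -0.22, while Lrrc8e at 0.03 did not pass the test (these were named after their values were seen). Akr1b3, aldose reductase, was called lower at -0.57 on 62 against 83 raw counts, a call lost in 11 of 18 alternatives, among them the fit without the low-count filter, DESeq2, the replicate block and 6 that leave out a library (all but 4T1-Sca1+ replicate 2 and 4T1-Sca1- replicate 1).

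**Figure D3:**
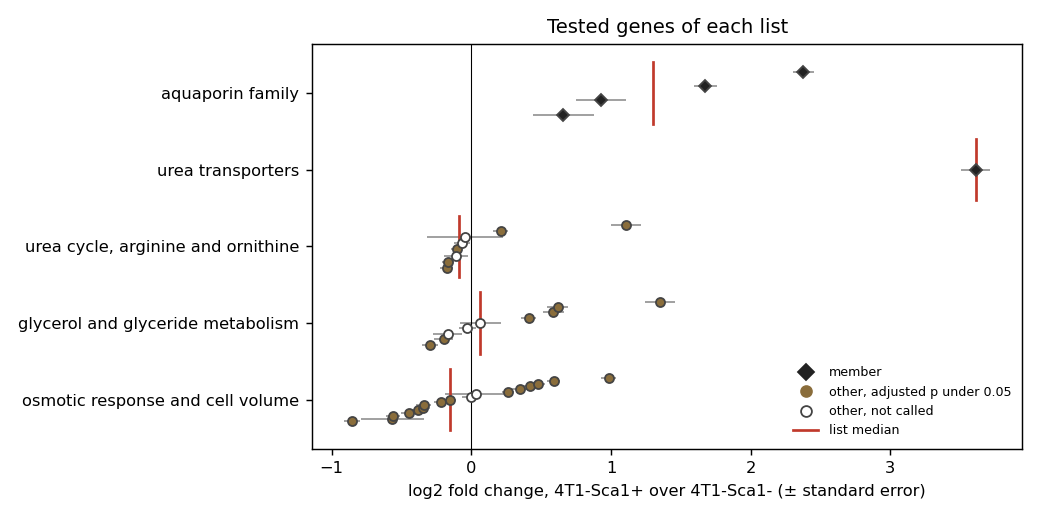
Log2 fold change of 4T1-Sca1+ over 4T1-Sca1- with its standard error for each tested gene of the 5 lists, with black diamonds for the 5 genes picked on this contrast, filled circles for other genes called and open circles for genes not called; red lines are list medians. The medians of the urea cycle (-0.09), glycerol (0.06) and osmotic (-0.15) lists lie near 0, with Lpin1 and Arg2 farthest to the right among the filled circles.

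The nearest counted genes around each of the 5 were then read out, 2 on each side. Of these 20 neighbours, 12 were tested, 5 rose, 6 fell and 1 was not called (31.3% of all tested genes rose and 30.2% fell), while the other 8 had too few counts. Beside Slc14a1, Siglec15, a sialic acid binding receptor, rose with a log2 fold change of 1.09 ± 0.23 at a distance of 42.7 kb (edgeR adjusted p of 0.000575), and Epg5, an autophagy tether, fell at -0.28 ± 0.05 (edgeR adjusted p of 7.98e-05). Slc14a2 and Setbp1 on the other side had too few counts. Beside Aqp1, Mindy4, a deubiquitinase, rose with a log2 fold change of 1.03 ± 0.15 at a distance of 16.2 kb (edgeR adjusted p of 1e-05), and Ghrhr and Adcyap1r1 had too few counts. Inmt, a methyltransferase, was also below the filter, with 62 raw counts in 4T1-Sca1+ and 4 in 4T1-Sca1- libraries.

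Around the other 3 genes, the tested neighbours lay between -0.37 and 0.44 on the log2 scale. Near Aqp5, Racgap1, a regulator of cytokinesis, was at 0.28 ± 0.04 and Bcdin3d, an RNA methyltransferase, at 0.44 ± 0.15 on the log2 scale, both called higher, with Aqp6 too low to test. Faim2, also below the filter, had 61 raw counts in 4T1-Sca1+ and 21 in 4T1-Sca1- libraries. Near Aqp3, Nol6 (-0.23) and Ube2r2 (-0.27) were called lower, Chmp5 (0.15) was called higher and Nfx1 (-0.03) was not called. Near Aqp11, Clns1a (-0.26), Rsf1 (-0.23) and Pak1 (-0.37) were all called lower, in the opposite direction to Aqp11, and Gdpd4 was too low to test. Chmp5 was no longer called with DESeq2 or without 4T1-Sca1+ replicate 1, 2 or 4 or 4T1-Sca1- replicate 1 or 4, nor was Bcdin3d with DESeq2 or without 4T1-Sca1+ replicate 3.

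**Figure D4:**
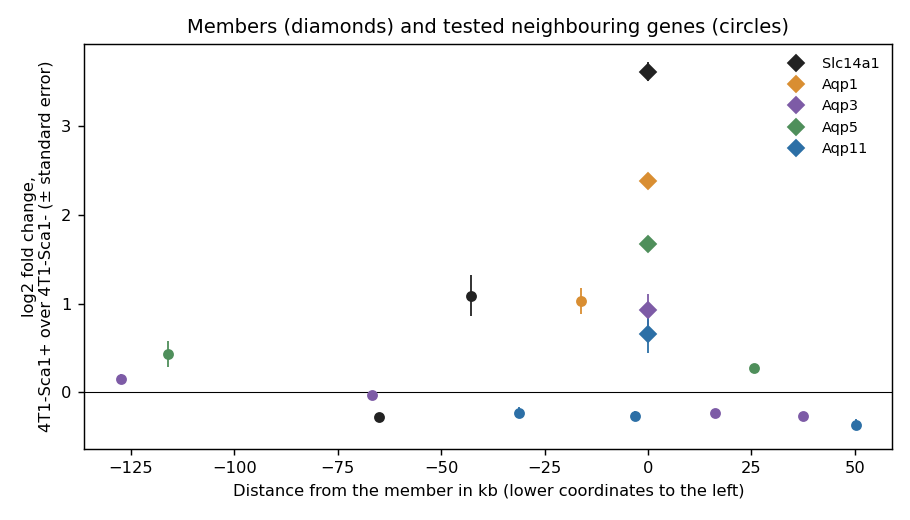
Log2 fold change of 4T1-Sca1+ over 4T1-Sca1- with its standard error against the distance in kb from each of the 5 genes, which are drawn as diamonds at 0 in their own colour with their tested neighbours as circles. Siglec15 and Mindy4 lie near 1, and the other circles lie between -0.37 and 0.44.

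The genes whose levels followed each of the 5 most closely over the 8 libraries were taken by Pearson's r of depth-scaled log2 counts (CPM) among 9368 to 9369 genes with a mean of at least 100 normalized counts. The 8 points fall into 2 groups, so r mainly reflects the group difference where that is large, as for Slc14a1, Aqp1 and Aqp5. The r of deviations from the group means is given beside it, both as descriptions. This second r comes from the same 8 libraries by which the genes were chosen, so it is not independent of that choice. For Slc14a1 these genes were Egln3, a prolyl hydroxylase that acts on hypoxia-inducible factor (r = 0.999, within groups 0.830), Aldh3a2, a fatty aldehyde dehydrogenase (0.999, 0.821), and Deptor, an inhibitor of mTOR (0.999, 0.858). For Aqp1 they were Fah, of tyrosine breakdown (0.999, 0.848), Prom2, a membrane protein related to prominin (0.998, 0.665), and Gstm1, a glutathione transferase (0.998, 0.768). For Aqp5 they were Gpc1, a glypican (0.998, 0.936), Man2a2, a Golgi mannosidase (0.998, 0.876), and Synpo, an actin-binding protein (0.998, 0.873).

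Many genes were almost as close, since 847, 1008 and 1030 genes had an r above 0.95 with Slc14a1, Aqp1 and Aqp5. For Aqp3 and Aqp11, only 57 and 14 genes did. Among the closest were Bsn (r = 0.985, within groups 0.937) and Plcd1 (0.980, 0.919) for Aqp3 and Nutf2 (0.981, 0.949), Ift52 (0.974, 0.937) and Tmem183a (0.973, 0.903) for Aqp11. The groups of Aqp3 and Aqp11 lie close, so r there also follows the scatter within groups. For Aqp11, counting alone gives an SD of 19.2% (4T1-Sca1+) and 25.4% (4T1-Sca1-) of the mean. The same figures for Aqp3 are 12.9% (4T1-Sca1+) and 18.8% (4T1-Sca1-). The part of counting error in this scatter was not tested.

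Because Slc14a1 and Aqp1 are proteins of erythrocytes and Aqp1 also of endothelium, markers of other cells were read beside them. Of 12 erythroid markers, 11 had no row or stayed at or under 3 counts in each library, the globins, Alas2, Slc4a1 and Rhag among them. The exception was Rhd (log2 fold change 1.02 ± 0.30), and the erythroid markers summed to 14.0 to 27.9 normalized counts in 4T1-Sca1+ and 9.24 to 13.4 in 4T1-Sca1- libraries. The endothelial markers summed to 33.8 to 40.9 in 4T1-Sca1+ and 43.4 to 63.9 in 4T1-Sca1- libraries, with 5 of 8 absent or at the floor, including Cdh5, Tek and Kdr. Most of that sum was Tie1, the one tested, called lower with 108 against 147 raw counts and no longer called without 4T1-Sca1- replicate 4. Pecam1, too low for the fit, differed in the other direction with 21 against 4 raw counts and no overlap between the groups.

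Several leukocyte and fibroblast markers were higher in 4T1-Sca1+ libraries, while others of these lists were not. Leukocyte markers summed to 194 to 222 normalized counts in 4T1-Sca1+ and 81.2 to 115 in 4T1-Sca1- libraries, with Cd74, Csf1r and S100a8 called higher. Of these markers, 5 of 10 were absent or at the floor. Ptprc, the gene of CD45, did not exceed 4 counts in any library. It had 10 raw counts in 4T1-Sca1+ against 2 in 4T1-Sca1- libraries, without overlap between the groups. Itgam had 10 against 11 raw counts, and its groups overlapped. Fibroblast markers summed to 635 to 671 and 395 to 468 normalized counts, mostly Pdgfra, with Pdgfra and Col1a1 called higher, 1 of 8 (Lum) absent and Postn not called. Among those too low for the fit, Dcn had 49 against 4 raw counts and Pdgfrb 27 against 1, both without overlap between the groups. Such an arrangement was found for 26.8% of tested genes, a share that leaves out genes below the filter. Col1a2 had 19 against 18 raw counts and Fap 4 against 11. Adipocyte markers, with 5 of 6 absent or at the floor and none tested, summed to 6.40 to 8.98 and 2.05 to 9.55. The part of such cells in the counts of the 5 genes was not tested.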

How the data were processed

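RNA of 4T1 cells sorted into 4 4T1-Sca1+ and 4 4T1-Sca1- libraries was sequenced. The submitters' processing notes name cutadapt 1.16, STAR 2.5.3a and the builds GRCm38 and mm10, and the counting tool and its strand setting are not given in the sources used here. The authors deposited raw counts for 16341 genes. They also deposited a normalized table of 15372 genes (unit: signal, counts divided by a size factor), which leaves out 969 genes with a single count and whose factors matched DESeq2 size factors to a relative difference of 2.22e-16. Samples were grouped by their labels. Counts were fitted over all genes with edgeR 4.0.16 (R 4.3.3; quasi-likelihood test, TMM scaling, edgeR's own filter on low counts, Benjamini-Hochberg adjustment over 11717 genes). DESeq2 1.42.0 and limma 3.58.1 were alternatives, beside other scalings, filters, a replicate block and each library left out (log2(value + 1) for limma on the normalized table). Only the main edgeR fit was also run on simulated data with known changes, and its outcome there is not reported here. Gene positions and lengths came from GENCODE M21, in which 16202 genes were found and 139 were not. Total counts per library, given in the report, limit the precision of the low genes, and intervals and floors (3 counts) cover counting error only.

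The genes and lists were chosen with earlier results of these data known. The genes named were the 5 picked, their other family members, for each further list those called with a log2 fold change of 1 or more in size and in any case the 3 called genes with the largest change (a reading of the rule settled after values were seen), 2 neighbours on each side, and the 3 genes of most similar profile, of which 1 is not reported here. RPKM used TMM-scaled library totals.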

Additional observations from a re-analysis of the deposited data

Results flagged for a closer look

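Of 52 groups of 4 libraries examined among the genes named, 1 held a library set apart from the others by the Dixon criterion, where chance gives 2.6. It was Racgap1, a neighbour of Aqp5, with 4256 normalized counts in 4T1-Sca1+ replicate 1 against 4028 to 4063 in the other 4T1-Sca1+ libraries. None of the 5 genes had such a library. The 52 groups did not take in both groups of every gene named.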

How the results depend on the processing

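Because the 5 genes were picked on this contrast, their calls under the alternatives support nothing, and the values are given as ranges. Without single libraries, the log2 fold changes of Slc14a1, Aqp1, Aqp3 and Aqp5 ran from 3.53 to 3.75, 2.33 to 2.42, 0.82 to 1.12 and 1.60 to 1.72. Aqp11 ran from 0.51 to 0.76 and was not called without 4T1-Sca1- replicate 2 (0.51), with DESeq2 (0.65) or at an adjusted p under 0.01. Among aquaporins, limma on the normalized table called 1 gene lower (Aqp8), and GC-corrected offsets, chosen after seeing the data, gave a median of 1.10. Of the glycerol genes, 1 was called lower with library totals alone or at an adjusted p under 0.01, and 4 with GC-corrected offsets. Nfx1, not called, turned to 0.017 with library totals alone and 0.0037 with upper-quartile scaling, and ran from -0.048 to 9.3e-05 without single libraries. The causes were not tested. RPKM moved with the length used. With the mean over transcripts, levels in 4T1-Sca1+ and 4T1-Sca1- cells were 13.3 and 1.08 for Slc14a1, 3.43 and 1.78 for Aqp3, 36.0 and 11.3 for Aqp5 and 0.756 and 0.480 for Aqp11. With the union of exons, they were 17.6 and 5.50 for Aqp5 and 0.180 and 0.114 for Aqp11, and 8.83 for Slc14a1 in 4T1-Sca1+ cells. With the longest coding transcript, added after seeing the data, Aqp11 was at 0.453 and 0.288. A replicate block gave 3605 genes higher and 3452 lower (3668 and 3538 without it). Libraries of the same number did not deviate together (r = 0.0957, -0.15, -0.0339 and -0.0011). Libraries from a shared sort could also give a low r, so whether the numbers pair them is not settled. The low counts of Aqp11, Aqp3, Aqp8 and Aqp9 limit what depth can show.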
